A study of Mus musculus with 6 samples.

Results

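The genes that set passage through G1, the phase of the cell cycle in which a cell commits to another division or leaves the cycle, were followed in retinal ganglion cells (RGCs), the neurons whose axons form the optic nerve. The group holds 10 genes, chosen by symbol among the 24060 genes of the deposited count table: the D cyclins Ccnd1, Ccnd2 and Ccnd3, their kinases Cdk4 and Cdk6, the CIP/KIP inhibitors Cdkn1a, Cdkn1b and Cdkn1c, and the INK4 inhibitors Cdkn2c and Cdkn2d. The 10 genes were picked with the comparison of E18 with P5 RGCs already known, so their fold changes are given as a description. A member is said to be called where it passed the threshold applied to all genes, an adjusted p under 0.05. For the members such a call describes the comparison they were picked from and is no independent test.

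The RGCs came from C57BL/6 wild-type mice at E18 (before birth) or P5 (after birth), with 3 samples at each age and no other treatment. Retinas were dissociated with papain, macrophages were removed on antibody-coated dishes, and RGCs were then held by antibodies to CD90 (Thy1), a surface protein that RGCs carry but that other cells can also carry. The E18 samples are named by their replicate numbers as E18-1, E18-3 and E18-4, and the P5 samples as P5-6, P5-8 and P5-9. Nothing in the labels says whether samples of the same age came from separate litters or how many animals each pooled, so p-values measure the spread between these samples, which may in part be technical.

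In a dividing cell, growth signals raise the D cyclins, which bind CDK4 or CDK6, and the active kinase phosphorylates the retinoblastoma protein and its relatives. This frees E2F transcription factors, which turn on cyclin E, CDK2 partners and the replication genes of S phase. INK4 proteins bind CDK4 and CDK6 directly and keep the cyclin out, whereas CIP/KIP proteins bind whole cyclin-CDK complexes and block CDK2 most strongly. In the retina, progenitors use Ccnd1 as their main D cyclin, and newly born neurons leave the cycle with raised CDK inhibitors. RGCs are the first retinal neurons to be born and do not divide at either age.

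The libraries held 81213639 to 114512853 counted reads each, and levels are given as counts per 1000000 counts (CPM) after TMM scaling of library size. Of the 24060 genes, 16449 had enough reads to be tested, and 9 of the 10 members were among them; Ccnd2 had too few. The RGC check genes were high in every sample: Rbpms, an RNA-binding protein specific to RGCs in the retina, lay at 276 to 320 CPM at E18 and 291 to 329 CPM at P5, and the sum of 14 RGC genes spanned 10190 to 11700 CPM at E18 and 10210 to 11320 CPM at P5. Within that sum 4 RGC genes were called higher at E18 and 5 lower, 64.3% of the 14 against 43.4% of all genes tested. Thy1, the antigen used to hold the cells, was at 212, 217 and 312 CPM at E18 and 499.5, 469 and 690.1 CPM at P5, and Isl1, a transcription factor of RGCs, had a log2 fold change of 1.10. Thy1, Isl1, Kdr, Tek, Rgs5, Glul, Slc1a3, Otx2, Neurog2, Dll1, Zmat3 and Cdk5r1 are named here after their values were seen. The E18 samples differed among themselves in genes of other cells. Of these, the dividing-cell and progenitor genes and the photoreceptor factors Crx and Otx2 are set beside members further on. Genes of dividing cells (14 genes, among them Mki67, Top2a and Cdk1) summed to 290 CPM in E18-1, 84.8 CPM in E18-3 and 31.3 CPM in E18-4, against 25.0 to 40.5 CPM at P5. Amacrine genes summed to 111, 219 and 17.8 CPM in E18-1, E18-3 and E18-4 and 20.4 to 30.3 CPM at P5. Of the 9 tested, 6 (66.7%, against 43.4% of all genes tested) were called, all higher at E18, but by limma voom 2 were called. Vascular genes summed to 72.8, 64.6 and 16.5 CPM against 14.7 to 17.9 CPM, but Kdr alone gave 69.5, 62.9 and 14.1 CPM of the E18 sums. The other called vascular genes, Pecam1 (log2 fold change -1.81), Tek (-1.80) and Rgs5 (-4.36), were lower at E18, and Cdh5 had 0 reads in E18-3, E18-4 and P5-6. Glial genes spanned 322 to 356 CPM at E18 and 244 to 285 CPM at P5, of which Glul alone gave 313 to 326 and 230.4 to 273 CPM. The glial transporter Slc1a3 was at 16.2, 2.80 and 0.475 CPM at E18 and 1.11 to 1.78 CPM at P5. Of the 8 glial genes tested, 6 were not called and 25.0% were called, against 43.4% of all genes tested. Microglial genes summed to at most 3.06 CPM in any sample.

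By edgeR's quasi-likelihood test with Benjamini-Hochberg adjustment over all genes tested, 7135 genes, 43.4% of those tested, differed between the ages, 20.8% higher and 22.5% lower at E18. Of the 9 members tested, 7 were called, 6 higher and 1 lower at E18, and Cdk6 and Cdkn2d were not. The samples of one age all lay beyond those of the other for 6 of the 9 tested members, against 56.1% of all genes tested, and for 7 of 10 once Ccnd2 was included. The median log2 fold change of the 9 members was 1.00, and that of all genes tested was 0.0047. Because the members were chosen on this same comparison, nothing is read from these counts. With 1 sample left out, members called were 4 without E18-1, 3 without P5-6 and 4 without P5-9, and genes called in all were 4575 without E18-3.

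**Figure D1:**
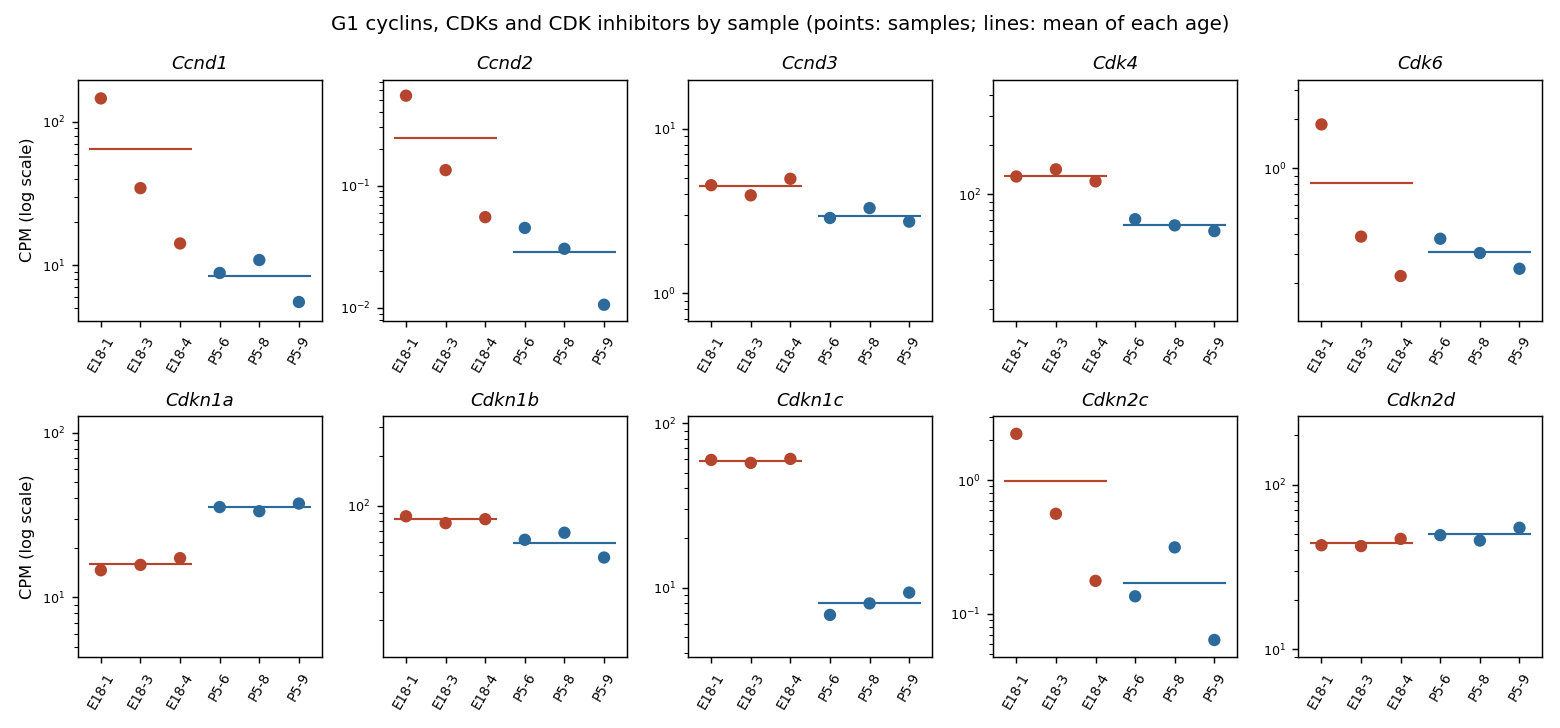
Expression of the 10 members in each sample, in CPM on a log axis, with E18 samples in red, P5 samples in blue and lines at the mean of each age. Cdk4 forms a tight group at each age. Cdkn1c does so at E18 (1.06 fold) but is wider at P5 (1.37 fold). The E18 points of Ccnd1, Ccnd2, Cdk6 and Cdkn2c are spread over 8.35 to 12.6 fold.

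Ccnd1 encodes cyclin D1, the D cyclin of retinal progenitors. Its level was 146 CPM in E18-1, 34.5 CPM in E18-3 and 14.2 CPM in E18-4, and 8.83, 10.9 and 5.54 CPM in P5-6, P5-8 and P5-9. All E18 samples lay above all P5 samples, but the E18 samples differed 10.3 fold among themselves, more than E18-4 differed from the P5 mean. The log2 fold change was 2.94 with a standard error (SE) of 0.74, and it was 1.54 with E18-1 left out. The call was lost when P5-6 or P5-9 was left out. The gene lies at chr7:144929931-144939925 on the minus strand of mm10, and its exons overlap those of LTO1 on the other strand, so that without a stated strand setting reads from the overlap cannot be assigned. The same holds for 7 of the 10 members, all but Cdkn1b, Cdkn2c and Cdkn2d.

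Ccnd2, cyclin D2 (chr6:127125162-127152193, minus strand), was close to the limit of detection. It had 45, 15 and 5 reads in E18-1, E18-3 and E18-4 and 4, 3 and 1 reads at P5. Summed over samples, 65 reads at E18 stood against 8 at P5, a ratio of rates of 8.0 with an exact 95% counting interval of 3.83 to 19.3 that covers counting error only. Of the 65 reads, 45 came from E18-1, and without that sample the ratio was 3.47 (1.46 to 9.1). E18 lay above P5 in every sample, and the order E18-1, E18-3, E18-4 was the one seen for Ccnd1.

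Ccnd3, cyclin D3 (chr17:47505051-47599691, plus strand), did not follow that order. Its level was 4.53, 3.93 and 4.96 CPM at E18 and 2.87, 3.29 and 2.72 CPM at P5, so the E18 samples lay above the P5 samples and E18-4 was the highest. The log2 fold change was 0.60 (SE 0.18), and the call was lost with any E18 sample left out and with P5-6 or P5-9 left out. The E18 samples spanned 1.26 fold.

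Fewer dividing cells in a sample and less Ccnd1 RNA per cell cannot be told apart in these bulk samples. The values that move with Ccnd1 are the genes of dividing cells: 7 of the 14 (50.0%, against 43.4% of all genes tested) were called, all 7 higher at E18. The ages lay apart for 2 of the 14, against 56.1% of all genes tested. The highest over lowest E18 sum of the 14 was 9.27, close to the 10.3 of Ccnd1. Mki67, a protein of the dividing nucleus, was at 68.8, 16.2 and 2.84 CPM at E18 and 1.87, 4.18 and 0.967 CPM at P5. For Mki67 and Top2a, both called, E18-4 lay inside the P5 range. None of the defining genes Mki67, Top2a and Cdk1 was at 0 in any sample. The count of 7 was 0 without P5-6 or without P5-9, 2 without E18-1, 12 without E18-4 and 1 by limma voom. Retinal progenitor genes followed the order of Ccnd1 as a sum, at 143, 60.3 and 31.7 CPM at E18. The sum was 21.0 to 28.8 CPM at P5. Not every gene of the list did so. Neurog2 was highest in E18-3, with 15.9, 23.8 and 2.93 CPM at E18, and Dll1 was lowest there (12.17 CPM). Sfrp2 was not called (log2 fold change 0.19). Of the 12 genes, 6 were called (50.0%), all higher at E18. This count was 2 without P5-6, 3 without P5-9 and 2 by limma voom. The ages lay apart for 5 of the 12, against 56.1% of all genes tested. Crx and Otx2, factors of photoreceptor precursors, each followed the order of Ccnd1. Crx was at 6.15, 2.78 and 0.773 CPM at E18 and 0.259, 0.173 and 0.425 CPM at P5, and Otx2 at 11.1, 3.40 and 0.618 CPM at E18 and 0.530, 0.173 and 0.319 CPM at P5, with log2 fold changes of 3.49 and 3.89. Per 100 CPM of the dividing-cell genes, Ccnd1 stood at 50.2, 40.7 and 45.3 CPM at E18 and 27.2, 26.8 and 22.2 CPM at P5, so the ages did not overlap on that scale. Per 100 CPM of the progenitor genes it stood at 102, 57.2 and 44.7 CPM at E18 and 35.2, 37.8 and 26.4 CPM at P5, again without overlap but with E18-1 well above the other E18 samples. The part that such cells have in the Ccnd1 difference was not tested.

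**Figure D2:**
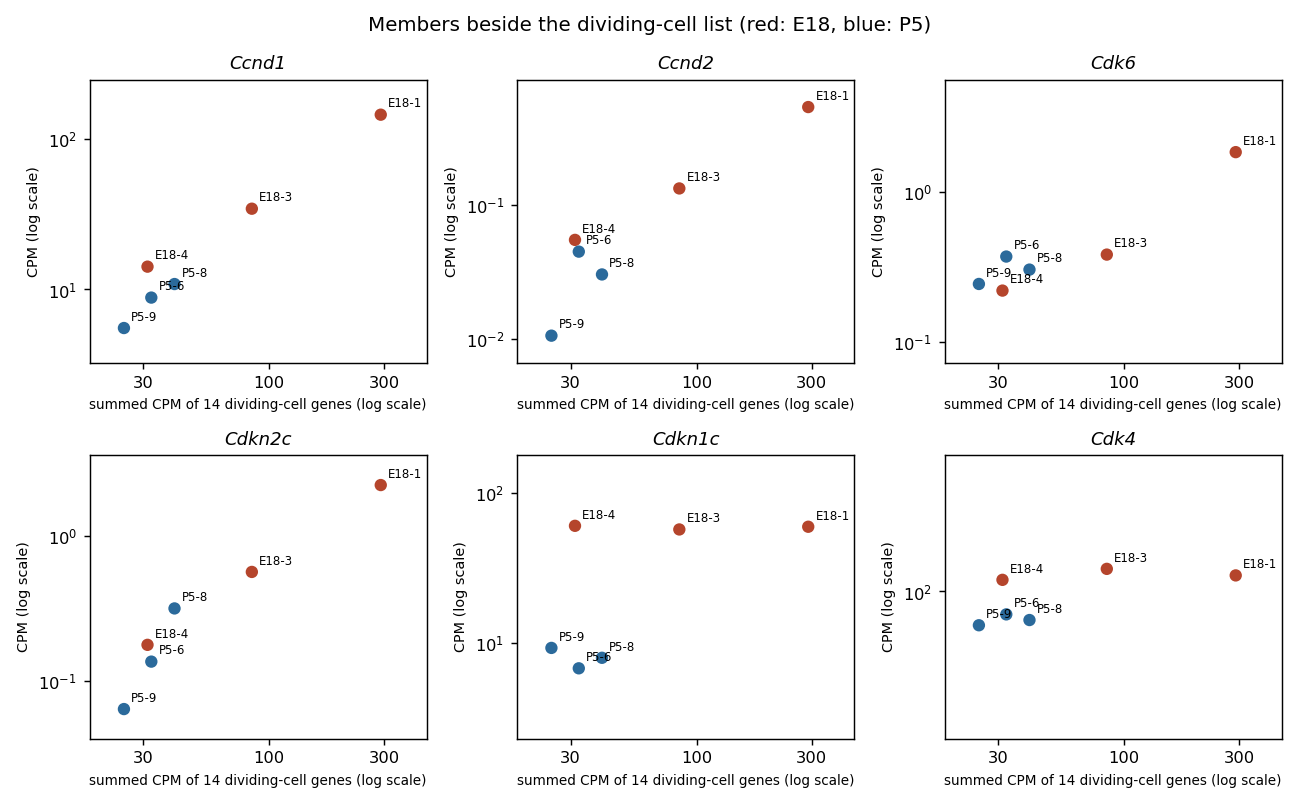
Level of 6 members against the summed level of 14 dividing-cell genes in each sample, both in CPM on log axes, with E18 in red and P5 in blue. Ccnd1, Ccnd2, Cdk6 and Cdkn2c are highest in E18-1, where the sum is 290 CPM, whereas the E18 points of Cdkn1c and Cdk4 lie level from a sum of 31.3 to 290 CPM.

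Cdk4, a partner kinase of the D cyclins (chr10:127063534-127067920, plus strand), was by far the more abundant of the pair. Its level was 128, 141 and 120 CPM at E18 and 70.4, 64.6 and 59.6 CPM at P5, with no overlap and a spread of 1.18 fold among the E18 samples. The log2 fold change was 1.00 (SE 0.10), so E18 was 2.0 times P5, and it kept its call without any 1 sample. Per 1000 bases of exon, the Cdk4 and Cdk6 levels summed to at least 36.8 CPM at E18 and at most 21.7 CPM at P5, and Cdk4 made up at least 99.7% of the sum in every sample. The 250 bases before its start hold 4 copies of CACGTG, a sequence bound by E-box factors such as Myc and its relatives, at 172, 118, 98 and 11 bases before the start. Of all 32851 mouse promoter windows of that length, 6.02% hold at least 1 copy and 0.0213% hold 4 or more, the number seen in this window. RefSeq (GRCm38.p6) gives the sequence at chr10:127063285-127063534, plus strand, with CACGTG and the GC box GGGCGG, read here on the other strand, in capitals:

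Cdk4: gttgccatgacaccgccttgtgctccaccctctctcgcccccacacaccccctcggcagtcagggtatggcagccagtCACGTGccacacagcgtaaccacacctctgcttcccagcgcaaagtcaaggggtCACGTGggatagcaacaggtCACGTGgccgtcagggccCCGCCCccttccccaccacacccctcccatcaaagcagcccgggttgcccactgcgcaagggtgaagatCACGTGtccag

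Cdk6 (chr5:3341485-3531008, plus strand) was low. Its level was 1.84, 0.384 and 0.221 CPM at E18 and 0.372, 0.305 and 0.245 CPM at P5, and the ages overlapped because E18-4 lay below every P5 sample. The log2 fold change was 1.40 (SE 0.71) and was not called; with E18-1 left out it was -0.0078, and with E18-4 left out it was 1.84 and was called. Per 100 CPM of the dividing-cell genes, Cdk6 stood at 0.635, 0.452 and 0.705 CPM at E18 and 1.15, 0.752 and 0.978 CPM at P5, so on that scale each E18 value was below each P5 value. Per 100 CPM of the progenitor genes the values were 1.29, 0.636 and 0.696 CPM at E18 and 1.48, 1.06 and 1.17 CPM at P5, and the ages overlapped. The promoter window, shown for its E2F-like element, is the sole member window with TTTNNCGC on either strand, which 4.28% of all windows hold. Among 10 windows of 7 members, searched on both strands, the GC box was in 7 (32.7% of all windows) and TATAAA in that of Cdk6 (12.4%), and TTTGAA (16%) and TGACGTCA (1.55%) were in 0. The Cdk6 window lies at chr5:3343643-3343892 on the plus strand, and capitals mark CACGTG, TTTTACGC and TATAAA, in that order:

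Cdk6: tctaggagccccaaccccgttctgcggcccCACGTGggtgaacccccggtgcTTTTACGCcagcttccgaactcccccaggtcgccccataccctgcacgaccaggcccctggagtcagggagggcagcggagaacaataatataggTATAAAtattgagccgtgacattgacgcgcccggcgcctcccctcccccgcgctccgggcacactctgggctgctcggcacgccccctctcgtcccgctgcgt

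Of the CIP/KIP inhibitors, Cdkn1c differed most between the ages. It encodes p57, the product of an imprinted gene expressed from the maternal copy that takes part in cell cycle exit in several embryonic tissues, and the gene lies at chr7:143458339-143461050 on the minus strand. It was at 59.6, 57.2 and 60.5 CPM at E18 and 6.81, 8.00 and 9.31 CPM at P5. The E18 samples spanned 1.06 fold, with a coefficient of variation of 2.87%, and 89.6% of all genes tested varied more among the E18 samples. The P5 samples spanned 1.37 fold, with a coefficient of variation of 15.5%, against a median of 14.8% for all genes tested. The mean was 7.35 times as high at E18, with a log2 fold change of 2.88 (SE 0.13) that was called without any 1 sample. In contrast to Ccnd1, Cdkn1c in E18-4 lay as far above the P5 mean (2.91 on the log2 scale) as in E18-1 and E18-3. The dividing-cell sum differed 9.27 fold among the same E18 samples.

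Cdkn1b (p27, chr6:134920401-134925513, plus strand) was at 86.0, 78.1 and 82.6 CPM at E18 and 61.9, 68.3 and 48.3 CPM at P5. The ages did not overlap, and the log2 fold change was 0.47 (SE 0.13). It lost its call when E18-1 or P5-6 was left out, with values of 0.44 and 0.48.

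Cdkn1a, p21, the inhibitor induced by p53 in response to DNA damage (chr17:29090976-29100727, plus strand), went the other way. Its level was 14.6, 15.7 and 17.3 CPM at E18 and 35.3, 33.3 and 37.1 CPM at P5, and no E18 value reached the P5 range. The log2 fold change was -1.15 (SE 0.11), so P5 was 2.22 times E18, and the call held without any 1 sample. The more upstream of its 2 annotated starts carries a p53 element, 2 abutting half-sites matched with at most 1 mismatch, starting 51 bases before the start, an element that 25 of 32851 windows, 0.0761%, hold in this form. The search for it was added after the sequence had been seen. RefSeq gives the window as chr17:29090729-29090978, plus strand, with the element in capitals:

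Cdkn1a: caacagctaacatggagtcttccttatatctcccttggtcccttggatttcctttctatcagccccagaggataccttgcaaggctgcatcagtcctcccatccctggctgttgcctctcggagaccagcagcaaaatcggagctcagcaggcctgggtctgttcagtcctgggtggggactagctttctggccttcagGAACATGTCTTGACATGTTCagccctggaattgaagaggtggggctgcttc

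The p53 list holds the p53 gene itself, Trp53, and 13 of its targets. Of the 13 genes tested, Trp53 included, 3 were higher and 3 lower at E18, with a median log2 fold change of 0.20. The share called, 46.2%, was close to the 43.4% of all genes tested. The count of 6 was 1 without E18-3, 2 without P5-6, 3 without E18-1 or P5-9, and 10 without P5-8. Among the 12 targets tested, 2 were higher and 3 lower. Zmat3 was higher (0.41, adjusted p = 0.0397) and lost its call without E18-1, E18-3, P5-6 or P5-9. Eda2r, a death receptor, was higher at E18 (2.41, adjusted p = 0.03; listed at 0 reads in P5-9) and lost its call without E18-1, E18-3 or P5-6, with a value of 3.66 without P5-8. Perp was lower (-0.98, adjusted p = 0.0178) and lost it without E18-3, and Fas had too few reads to be tested. Trp53 was higher at E18 (log2 fold change 0.77, adjusted p = 0.00363).

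Cdkn2c, p18 (chr4:109660876-109667189, minus strand), was low and varied as Ccnd1 did. It had 185, 63 and 16 reads in E18-1, E18-3 and E18-4, or 2.23, 0.562 and 0.177 CPM, and 12, 31 and 6 reads at P5, or 0.135, 0.315 and 0.0638 CPM. E18-4 lay inside the P5 range, and the E18 samples differed 12.6 fold. The log2 fold change was 2.503 (SE 0.89), 1.11 without E18-1 and 3.29 without P5-8, and the call was lost without E18-1, E18-3, P5-6 or P5-9. Per 100 CPM of the dividing-cell genes Cdkn2c stood at 0.768, 0.663 and 0.564 CPM at E18 and 0.417, 0.777 and 0.255 CPM at P5, so on that scale the ages overlapped. They also overlapped per 100 CPM of the progenitor genes, at 1.56, 0.933 and 0.557 CPM at E18 and 0.540, 1.10 and 0.304 CPM at P5.

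Cdkn2d, p19 of the INK4 family (chr9:21288410-21291407, minus strand), differed least. It was at 42.9, 42.4 and 46.9 CPM at E18 and 49.3, 45.7 and 54.7 CPM at P5, with overlapping ages and a log2 fold change of -0.18 (SE 0.10) that was not called. With P5-8 left out the value was -0.26 and was called. The other INK4 genes were almost silent: Cdkn2a had 2 reads in E18-1 and 0 in the other samples, and Cdkn2b had 16, 10 and 5 reads at E18 and 0, 2 and 0 at P5.

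**Figure D3:**
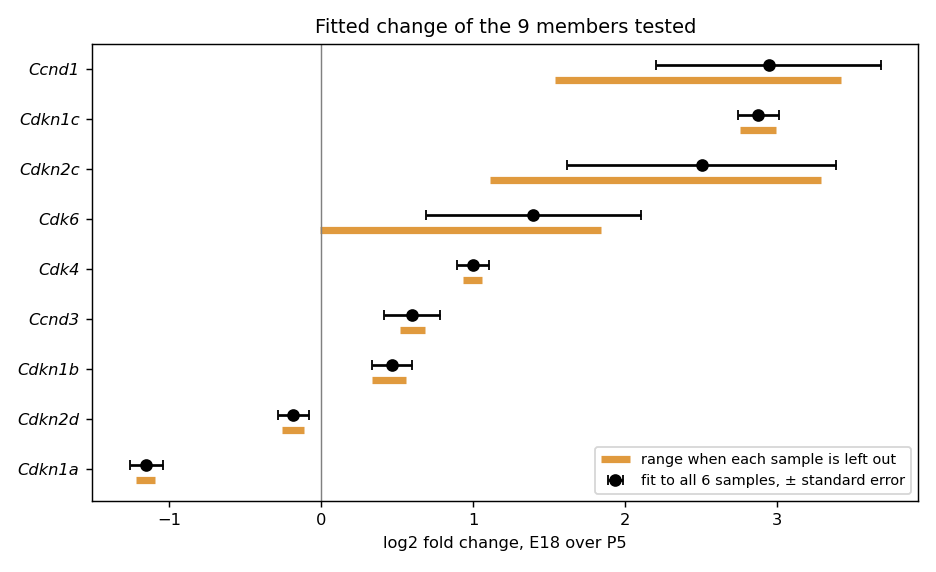
Log2 fold change of E18 over P5 for the 9 tested members, with black bars for the standard error and orange bars for the range when each sample is left out. Cdk4, Cdkn1a and Cdkn1c keep their place whichever sample is left out, while Ccnd1, Cdk6 and Cdkn2c move towards 0 without E18-1.

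Levels of different genes were compared per 1000 bases of exon (CPM per kb). At E18 the order was Cdk4 (39.9), Cdkn1c (29.0), Cdkn2d (27.97), Cdkn1b (18.07), Ccnd1 (13.8) and Cdkn1a (4.46), with the other 4 members at 0.510 or less. Cdkn1c and Cdkn2d overlapped, and Ccnd1 overlapped both of its neighbours. At P5 the order was Cdkn2d (31.7), Cdk4 (19.96), Cdkn1b (13.1), Cdkn1a (9.91), Cdkn1c (3.95) and Ccnd1 (1.79), and each of these lay apart from the next. With the longest transcript as the length, the P5 order changed: Cdkn1a (mean 16.9) lay above Cdkn1b (mean 13.1) without overlap, and Cdk4 (29.02 to 34.3) overlapped Cdkn2d (32.1 to 38.5).

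The 5 inhibitors together came to 76.8 to 82.5 CPM per kb at E18 and 57.5 to 60.4 CPM per kb at P5, without overlap. Cdkn1c made up 36.4%, 36.6% and 36.0% of it at E18 and 5.74%, 6.83% and 7.56% at P5. Cdkn1a was 5.11% to 5.89% at E18 and 16.3% to 17.3% at P5, and Cdkn2d was 33.9% to 36.1% at E18 and 50.6% to 57.6% at P5. Cdkn1b held 22% to 23.5% and 17.6% to 26.1%, overlapping ranges. Among the D cyclins Ccnd1 held 98.2%, 94.1% and 84.1% at E18 and 79.1% to 85.9% at P5, the E18-4 share lying inside the P5 range. Inhibitor over D cyclin sums were 2.55, 9.86 and 23.0 in E18-1, E18-3 and E18-4 and 21.4 to 40.6 at P5.

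**Figure D4:**
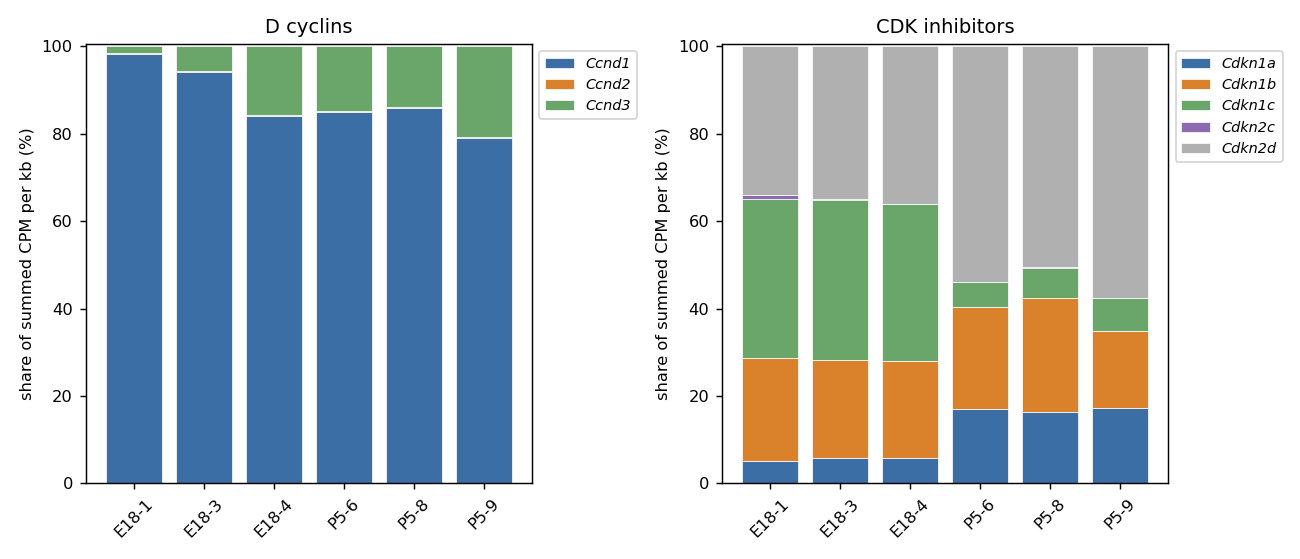
Share of each CDK inhibitor and each D cyclin in the per-length sum of its family, in percent, stacked for each sample. Cdkn1c makes up 36.0% to 36.6% of the inhibitor sum in the E18 samples and 5.74% to 7.56% at P5, and the Cdkn2d and Cdkn1a shares are larger at P5.

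The wider pathway was read from 9 lists holding 64 genes, of which 61 were tested. In all 36 were called (59.0%, against 43.4% of all genes tested), 20 higher and 16 lower at E18, with a median log2 fold change of 0.28 against 0.0047 for all genes tested. The count was 22 without E18-1 and 23 without E18-3 or without P5-6. The counts by list below stand beside 20.8% of all genes tested called higher and 22.5% called lower.

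Of the replication genes driven by E2F, 7 of 11 were higher and 0 lower, with a median of 0.59, among them Mcm3 (log2 fold change 3.39, adjusted p = 0.0175), Mcm7 (1.44, 0.00148) and Mcm2 (1.19, 0.0115), parts of the replicative helicase. The count of 7 was 3 without P5-6 and 4 without P5-9; Mcm3 lost its call with any P5 sample left out and Mcm2 without P5-6. Mcm3 followed the order of Ccnd1, at 14.8, 2.59 and 0.839 CPM at E18, and its value was 1.58 without E18-1. Of the 10 E2F and DP factors, 5 were higher and 0 lower, with a median of 0.68, and the count was 3 without E18-1 or without P5-9. E2f8 (5.08, adjusted p = 0.00631) and E2f7 (1.72, 0.00421), repressors of the family, kept their calls without any 1 sample, whereas E2f2 (2.51, 0.0189) lost it without E18-1, P5-8 or P5-9. Without E18-1 the values of E2f8 and E2f2 were 3.48 and 1.48. E2f8 was at 3.52, 0.785 and 0.177 CPM at E18, in the order of Ccnd1, and 0.0338, 0.0610 and 0.0319 CPM at P5. Per sample E2f7 was at 6.15, 5.32 and 3.84 CPM at E18 and 1.40, 2.296 and 0.957 CPM at P5.

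Of the retinoblastoma family, Rb1 (0.51, adjusted p = 0.00621) and Rbl1 (0.67, 0.0459) were higher at E18 and Rbl2 (-0.28, 0.0382) was lower. Rb1 kept its call without any 1 sample. Rbl1 lost it without E18-1, E18-3, P5-6 or P5-9, and Rbl2 with P5-6 or any E18 sample left out. In the CDK2 complex list, 2 of 4 were higher and 1 lower. Cdk2 (3.28, SE 0.74, adjusted p = 0.00804) was at 4.09, 1.204 and 0.530 CPM at E18 and 0.214, 0.274 and 0.106 CPM at P5, with a value of 2.13 without E18-1, and it was among the 5 genes most like Ccnd1. Cdc25a (0.91, 0.0140), the phosphatase that activates CDK2, lost its call without P5-6, and Ccne1 (-0.49, 0.0182) lost it without E18-3 or without E18-4.

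Of the 9 ubiquitin ligase genes for D cyclins and p27, 4 were lower and 0 higher, with a median of -0.20; without E18-1 the count was 2. Fbxo4 (-0.97, adjusted p = 0.0018) and Fbxo31 (-0.71, 0.00386), F-box proteins that target cyclin D1, kept their calls without any 1 sample, and Skp1a (-0.34, 0.0112), the adaptor of SCF ligases, lost its call without E18-1. Of the CDK-activating kinase, Ccnh (-0.54, 0.00362) kept its call and Cdk7 (-0.35, 0.0216) lost it without E18-1, E18-4 or P5-9. Of the 8 kinases and partners that act in neurons after division, 5 were lower and 1 higher, with a median of -0.38. Cdk14 (-0.57, adjusted p = 0.00963) was at 1098, 1067 and 1362 CPM at E18 and 2009, 1490 and 1744 CPM at P5. The CDK5 activators went opposite ways. Cdk5r1 (0.49, adjusted p = 0.0078), at 535, 569 and 572 CPM at E18 and 387.5, 458 and 349 CPM at P5, was the 1 called higher and kept its call without any 1 sample. Cdk5r2 (-0.81, 0.0138), at 11.8 to 19.9 CPM at E18 and 22.6 to 30.2 CPM at P5, lost its call without E18-3. Cdk18 (-1.87, adjusted p = 0.0140) was low, with 14, 16 and 22 reads at E18 and 78, 28 and 81 reads at P5. It lost its call without E18-3 or P5-6.

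**Figure D5:**
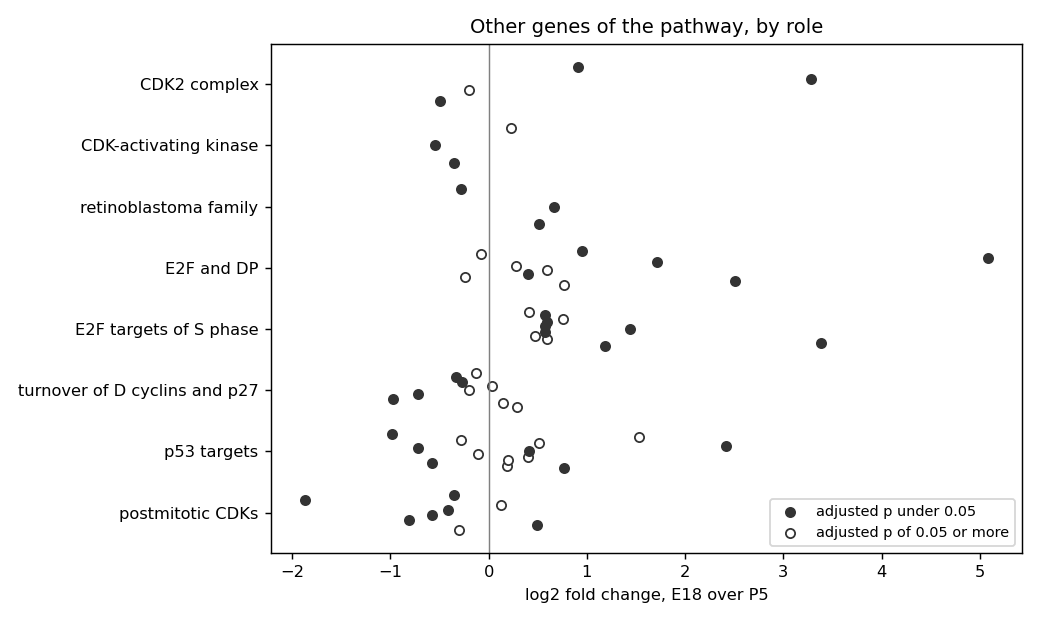
Log2 fold change of E18 over P5 for each tested gene of the pathway lists, plotted by list for the 8 lists with a tested gene, with filled points for an adjusted p under 0.05. All 11 points of the S-phase list lie to the right of 0, and the 4 filled points of the turnover list lie to the left.

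The genes whose pattern over the 6 samples was most like that of the 3 most variable members were found among 13425 or 13426 genes by Pearson correlation of log2(CPM + 1). The genes closest to Ccnd1 were Cp, Aurka, Gldc, Fgf15 and Cdk2, at r of 0.994 to 0.999 over 6 samples. Fgf15, a progenitor gene, was at 21.2, 4.27 and 0.884 CPM at E18 and 0.316, 0.315 and 0.0213 CPM at P5. The genes closest to Cdkn2c were Col4a5, Lamb2, Clspn, Smc4 and Nek2, of which Clspn and Smc4 act in replication and chromosome condensation. Those closest to Cdkn1c were Rbm3os, Smarca4, Ubald1, Hmcn1 and Srpk3, at r of 0.996 to 0.998. Smarca4, the ATPase of the BAF chromatin remodelling complex, was at 582, 603 and 585 CPM at E18 and 314, 314 and 325 CPM at P5. Its samples were tight at both ages, whereas those of Cdkn1c were tight at E18 alone. The 6 points share the same libraries and the split by age, and the likeness is given as a description.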

How the data were processed

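RNA from immunopanned E18 and P5 RGCs (3 samples each) was sequenced by the authors with TrueSeq and RiboZero Gold and paired reads, although the labels name polyA RNA. The authors aligned reads to mm10 with STAR, made gene counts for RefSeq with HT-seq, and deposited the unscaled counts of every sample. The strand setting is not given in the sources used here. In the same deposited table are normalized counts (a library-size scaled signal), log2 fold changes, p-values and a rank score from the authors' own comparison, none of which was used. One E18 column name carries 1.2.5 and was taken as replicate 1; whether it pools preparations is not stated.

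Counts were filtered with filterByExpr (minimum 10), scaled with TMM factors and fitted in edgeR 4.0.16 (R 4.3.3, quasi-likelihood F test); a gene was called at a Benjamini-Hochberg adjusted p under 0.05. DESeq2 1.42.0 and limma 3.58.1 voom served as alternatives. Fits were tested on simulated counts. The members, lists and rule for named genes were chosen with earlier results of these data known: all 10 members, at most 3 called genes per pathway list by size of change plus untested ones, the defining markers, and the 5 genes most like each of the 3 members with the largest range. CPM used TMM library sizes, and lengths were unions of GENCODE M21 exons. Replicate pairs differed by more than sampling noise (chi-square per degree of freedom 30.5 to 141). Promoters came from the RefSeq table, which matched 7 members. The photoreceptor list as a whole is not reported here.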

Additional observations from a re-analysis of the deposited data

How the results depend on the processing

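The number of genes called ran from 4575 (without E18-3) to 8796 (without P5-8) when each sample was left out, and from 6331 to 7634 under other tests, normalizations and filters. Members called ran from 3 (without P5-6) to 8, with 4 without E18-1 and 4 without P5-9, and pathway genes called from 22 to 42. The log2 fold change of Cdk6 fell to -0.0078, almost no difference, without E18-1, and was 1.84 and called without E18-4. Ccnd1 was not called by limma voom, nor was Cdkn2c, which was also not called with upper-quartile factors or library totals alone. Cdk4, Cdkn1a and Cdkn1c kept direction and call in every alternative run. With longest transcripts for lengths Ccnd1 held 73.6% of the D cyclin sum at P5, against 83.3%, and the P5 order of Cdkn1a and Cdkn1b per length turned. No paired analysis was possible because the ages share no replicate number. The low counts of Ccnd2, Cdk6 and Cdkn2c limit what can be said of them.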
